A study of Mus musculus with 8 samples.

Results

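The genes described here are 10 genes that are widely used to recognise macrophages, followed in cultures of mouse bone marrow stromal cells: Cd68, Csf1r, Cd14, Ctss, Tyrobp, Fcer1g, Lyz2, Mrc1, Cd163 and C1qb. Each was taken from the probe sets that the array annotation pairs with that symbol alone, and each had 1 such probe set, so the 10 are 10 of 19938 genes measured. Macrophages are phagocytes that arise from marrow precursors and from fetal precursors that settle in tissues. They adhere to culture plastic, so they can persist in stromal cultures that are selected only by adherence. They live on the growth factor Csf1, which stromal cells secrete, they engulf particles through surface receptors, and they digest them in lysosomes.

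The cells came from femurs and tibiae of C57BL/6 mice 6 to 8 weeks old, were kept as adherent cultures without added cytokines, and were seeded on Skelite, a ceramic bone scaffold. They were held in osteoinductive medium, which drives stromal cells towards bone-forming cells, or in growth medium, under 4 conditions: microgravity in flight, a centrifuge at 1 g in the same incubator in flight, ground units, and laboratory dishes. The 2 flight conditions ran in automated hardware, the ground units were worked by hand, and the laboratory cultures had no such units, so flight and ground-based arrays also differ in hardware and handling. Each combination of medium and condition has 1 array, hence 4 flight and 4 ground-based arrays. No label names separate cultures or animals for the arrays. P-values therefore reflect the spread of these 8 arrays, part of which may be technical, and the small number of arrays limits precision. Both centrifuge samples are labelled microgravity under gravity type, and the osteoinductive one is described in one place as kept in growth medium. The titles were followed for both.

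Values are log2 of the deposited probe set intensities, and a difference is a difference of log2 values. A probe set was called dim where its mean over the 8 arrays was at or below 7.14, the 40th percentile of all 35557 probe sets. Array medians lay between 7.50 and 7.62. The osteoinductive microgravity array stood apart in markers of lung epithelium: the summed linear intensity of 12 such genes was 15340 there, 3019 to 3856 on the other flight arrays, and 1746 to 1943 on the ground-based arrays. The summed intensity of 12 endothelial genes was also highest there. The differences of Lyz2, Mrc1 and the named lung and endothelial genes in flight, and the mean profile of the 10 genes, are therefore given with and without it.

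Of the 10 genes, 7 lay above the percentile and 3 were dim, namely Fcer1g, Mrc1 and Cd163. Other macrophage and leukocyte genes were mixed. Above the percentile lay 14 of 36 surface and phagocytic receptors, 18 of 27 leukocyte signalling and cytoskeleton genes and 12 of 15 myeloid transcription factors. Among them, chosen after their values were seen, were the receptor Trem2 with a mean of 8.18, the integrin chain Itgb2 at 8.11 and Laptm5, a lysosomal membrane protein of blood cells, at 8.34. The brightest of the leukocyte signalling and cytoskeleton genes was Cd53, at a mean of 10.93. Several defining markers were low. Adgre1, an adhesion receptor used as the standard surface marker of mouse macrophages, lay between 6.36 and 6.62 on the 8 arrays, and Itgam, an integrin chain of myeloid cells, between 6.56 and 7.05. Spi1, the transcription factor PU.1 that specifies myeloid cells, lay between 6.57 and 6.90. Ptprc, the CD45 antigen of leukocytes, lay between 6.86 and 7.30. These 4 levels are near or below the percentile that marks dim probe sets. The 10 genes are treated here as single genes, and no number of macrophages is read from them. In RNA of whole cultures, fewer cells of a type and less RNA per cell cannot be told apart.

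**Figure D1:**
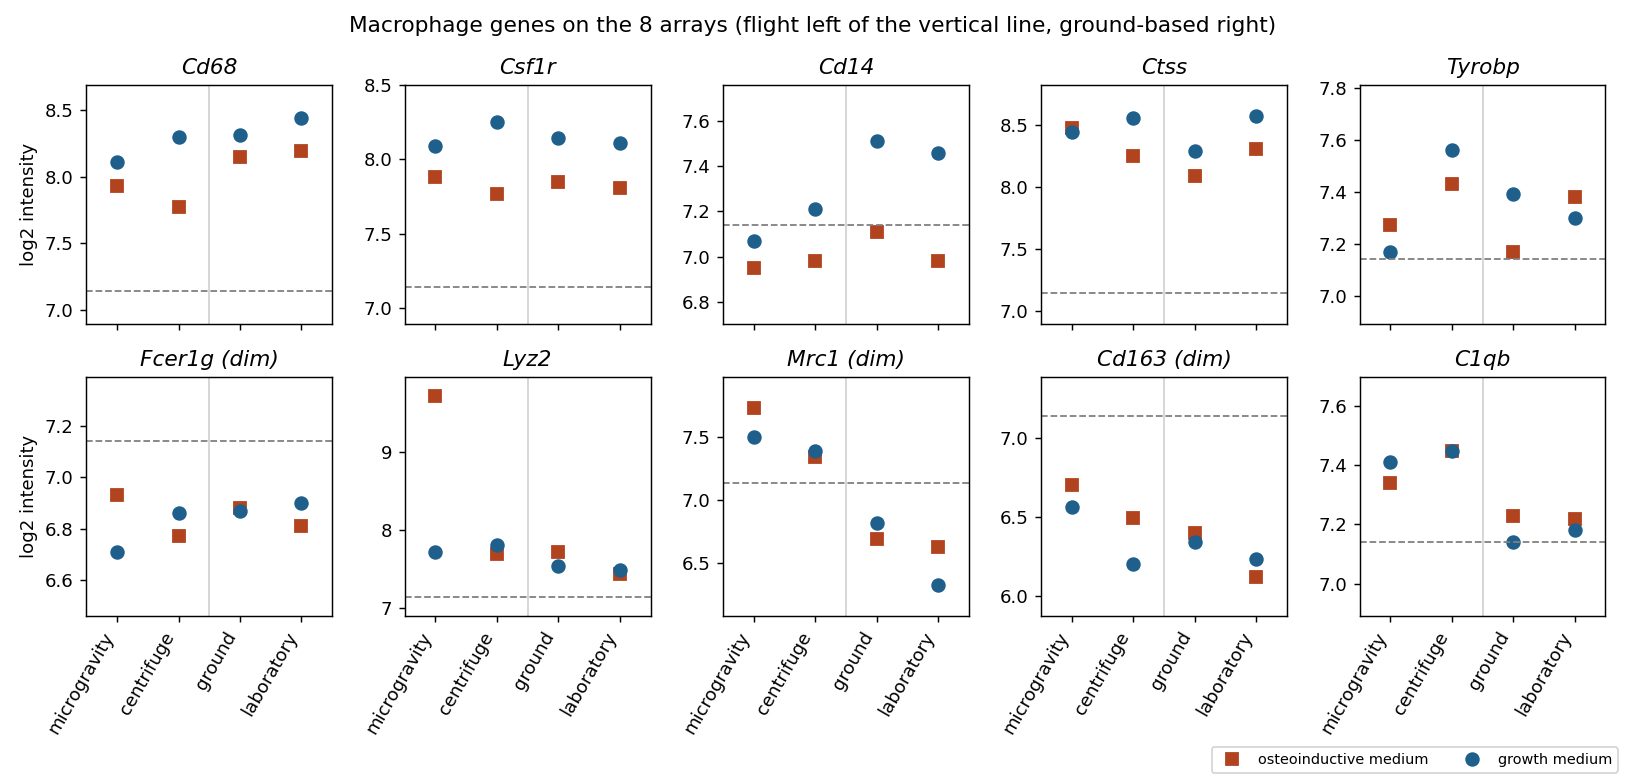
Log2 intensity (vertical axes, each with its own range) of the 10 genes on the 8 arrays by condition, with squares for osteoinductive and circles for growth medium and 1 array per point. The dashed line is the 40th percentile of all probe sets, 7.14. Mrc1 lay above it on 4 of 4 flight arrays and on 0 of 4 ground-based arrays, and Lyz2 had a single high point at 9.72.

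The genes differed in how far they varied. Across the 8 arrays Lyz2 spanned 2.29 on the log2 scale and Mrc1 spanned 1.39, whereas the median gene of the array spanned 0.50. Cd68 spanned 0.67, and the other 7 spanned 0.22 (Fcer1g) to 0.58 (Cd163). The results therefore turn on 2 genes with wide ranges, Mrc1 and Lyz2, and on smaller differences of Cd68, Csf1r, Cd14 and C1qb.

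The promoters of Mrc1 and Lyz2 are printed because these genes varied most. They are the 250 bases before the annotated start from RefSeq, on build GRCm38.p6, in the direction of the gene. Capitals mark GAGGAA or its reverse complement TTCCTC, a PU.1-type motif, searched on both strands. Other forms of the motif were not searched. Mrc1 lies at chr2:14229164-14229413 on the plus strand and Lyz2 at chr10:117282273-117282522 on the minus strand.
Mrc1: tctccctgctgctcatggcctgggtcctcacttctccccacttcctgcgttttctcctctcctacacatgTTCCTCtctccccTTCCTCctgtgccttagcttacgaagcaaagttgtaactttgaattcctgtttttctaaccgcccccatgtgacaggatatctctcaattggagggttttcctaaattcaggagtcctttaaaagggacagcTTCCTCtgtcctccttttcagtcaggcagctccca
Lyz2: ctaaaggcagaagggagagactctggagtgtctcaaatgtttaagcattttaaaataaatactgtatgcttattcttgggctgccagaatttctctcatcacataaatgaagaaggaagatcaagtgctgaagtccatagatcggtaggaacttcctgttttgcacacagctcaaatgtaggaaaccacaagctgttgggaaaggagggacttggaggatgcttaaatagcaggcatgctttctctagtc
The Mrc1 window held the letters at 3 places, which ended 175, 162 and 30 bases before the start, and the Lyz2 window held none. Of the 10 genes, 7 matched the promoter table and 4 of these held the letters (Cd68, Ctss, Mrc1 and C1qb), against 23.3% of 32851 promoters in the table. A match is a description of the letters and not a binding site.

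The comparison of flight with ground-based arrays asked how culture in space, with or without 1 g, differed from culture on the ground. Mrc1 rose, by 1.83-fold. C1qb rose by a small amount, and Cd68 fell by a small amount. Thus 3 of the 10 passed an adjusted p of 0.05, 2 higher and 1 lower, where 27.8% of all genes passed, 11.6% higher and 16.2% lower, so the share among the 10 was near that of the whole array. The median log2 difference was 0.08 over the 10 and -0.02 over all genes. Bright genes lay lower in flight as a class. Above the 60th percentile, 7.99, the median difference was -0.165, with 697 genes higher and 2987 lower. The falls of bright genes given below, such as Cd68, Laptm5, Npc2, Ctsd, Runx1 and Csf1, stand beside that shift. Its cause was not tested. The arrays of the 2 groups did not overlap for 2 of the 10, Mrc1 and C1qb, against 23.4% of all genes.

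Mrc1 encodes the mannose receptor, an endocytic receptor of tissue macrophages that is also known from lymphatic and sinusoidal endothelium. Its log2 intensity was 7.73 and 7.50 in microgravity, and 7.34 and 7.39 on the centrifuge, with osteoinductive before growth medium in each pair. It was 6.69 and 6.82 in the ground units and 6.63 and 6.33 in the laboratory. Every flight array lay above every ground-based array, in both media. The flight arrays averaged 7.49 ± 0.17 and the ground-based arrays 6.62 ± 0.21 (SD, n = 4 each). The difference was 0.87 (SE 0.12, adjusted p = 0.000164, limma with Benjamini-Hochberg adjustment over all genes). It passed when any 1 of the 8 arrays was left out, at 0.77 to 0.97. Its mean over the 8 arrays, 7.05, was in the dim range.

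Each flight condition was also set against the ground units alone. Mrc1 was higher in microgravity than in the ground units by 0.86 (SE 0.14, adjusted p = 0.00108), in a comparison where the share of all genes past the test was 20.2% (9.6% higher, 10.6% lower). Mrc1 on the centrifuge exceeded that in the ground units by 0.61 (SE 0.14, adjusted p = 0.0156), where 7.61% of genes passed, 5.34% higher and 2.27% lower. The second call was lost when the growth centrifuge array, the osteoinductive centrifuge array or the osteoinductive ground array was left out, with adjusted p of 0.0938, 0.0605 and 0.269. These 2 comparisons share the ground arrays. Between microgravity and the centrifuge Mrc1 differed by 0.25 (SE 0.14, adjusted p = 0.543), and between the ground units and the laboratory by 0.28 (SE 0.14, adjusted p = 1 after rounding). In growth medium the ground units exceeded the laboratory by 0.49 and in osteoinductive medium by 0.06, with 1 array on each side. The test of flight by medium gave 0.01 for Mrc1 (SE 0.24), so no difference between media was detectable with these arrays.

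The other scavenger receptor, Cd163, takes up haemoglobin bound to haptoglobin and was dim on all 8 arrays. It was at 6.70 and 6.56 in microgravity, 6.49 and 6.20 on the centrifuge, 6.40 and 6.34 in the ground units, and 6.12 and 6.23 in the laboratory, with osteoinductive medium first in each pair. The flight and ground-based ranges overlapped, and the difference of 0.21 (SE 0.11) did not pass (adjusted p = 0.161). It passed in 1 of the 8 fits that left out an array. Cd163 in microgravity minus centrifuge differed by 0.28 (SE 0.13, adjusted p = 0.463).

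C1qb encodes a chain of complement C1q, which macrophages secrete. Its log2 intensity was 7.34 and 7.41 in microgravity, and 7.45 and 7.45 on the centrifuge, against 7.23 and 7.14 in the ground units and 7.22 and 7.18 in the laboratory, with osteoinductive before growth medium. The flight arrays averaged 7.41 ± 0.05 and the ground-based arrays 7.19 ± 0.04 (SD, n = 4 each) and did not overlap. The difference of 0.22 (SE 0.07, 1.17-fold) passed at an adjusted p of 0.0435. It no longer passed when any 1 array was left out, where the lowest adjusted p was 0.053. After quantile normalization it was 0.12 with an adjusted p of 0.239. The genes of the other C1q chains, C1qa and C1qc, differed by -0.10 and 0.01 in flight. Neither passed (limma, adjusted p = 0.396 and 0.956), so the rise was seen in C1qb alone.

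Cd68 encodes a lysosomal glycoprotein. It was at 7.93 and 8.11 in microgravity and 7.77 and 8.30 on the centrifuge, against 8.15 and 8.31 in the ground units and 8.19 and 8.44 in the laboratory, in the order osteoinductive, growth. The ranges overlapped because the growth centrifuge array lay within the ground-based range. The difference of -0.24 (SE 0.08) passed at an adjusted p of 0.0491 and passed in 1 of 8 fits that left out an array, the one without that growth centrifuge array, at an adjusted p of 0.0155. Without the term for medium the adjusted p was 0.179.

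Cd14, the co-receptor for bacterial lipopolysaccharide, differed by -0.21 (SE 0.09, adjusted p = 0.0851), and by -0.31 with an adjusted p of 0.0194 after quantile normalization. Ctss, the lysosomal protease cathepsin S, differed by 0.11 (SE 0.10, adjusted p = 0.417). The Csf1 receptor Csf1r differed by 0.02 (SE 0.08) and the signalling adaptors Tyrobp and Fcer1g by 0.05 (SE 0.10) and -0.05 (SE 0.08). None of these 5 passed, and their signs are not settled where the size is near 0: after quantile normalization Csf1r and Tyrobp were at -0.02 and -0.05. Csf1r was 8.00 ± 0.21 in flight and 7.98 ± 0.17 on the ground (SD, n = 4 each).

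**Figure D2:**
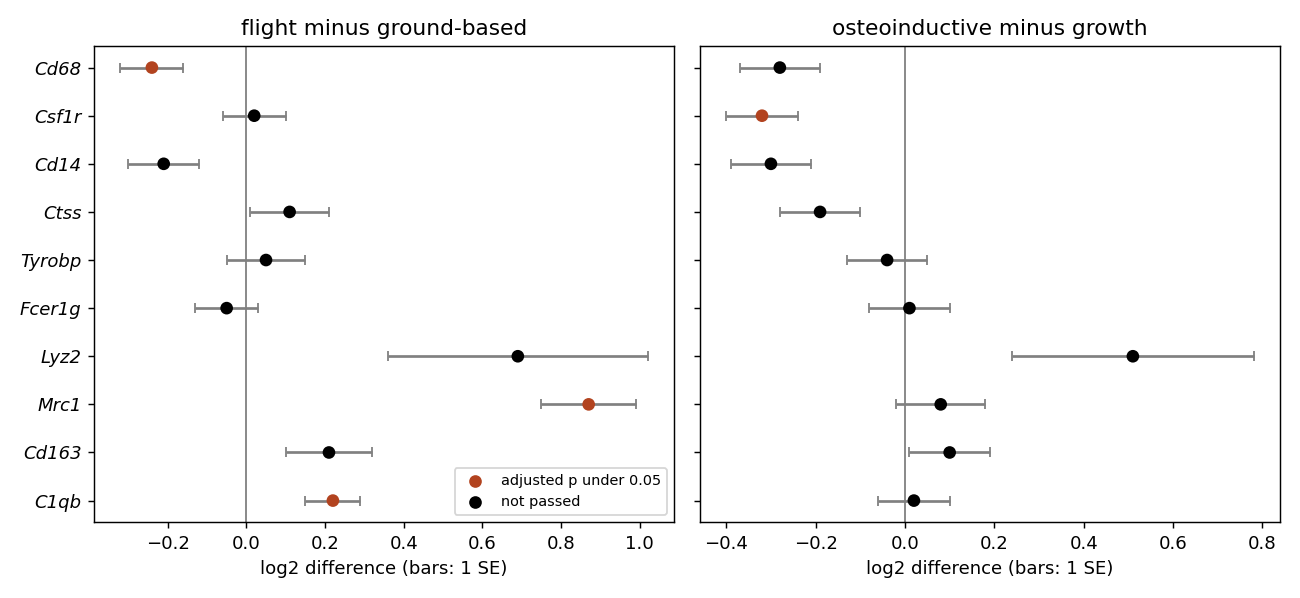
Log2 difference of each of the 10 genes with 1 SE (horizontal axes) for flight minus ground-based, left, and osteoinductive minus growth medium, right. Red points passed an adjusted p of 0.05 (Cd68, Mrc1 and C1qb for flight, Csf1r for medium). Lyz2 had the widest error in both panels.

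Lyz2, the lysozyme of myeloid cells, is an antibacterial enzyme that mouse alveolar type II cells also make. Its log2 intensity was 9.72 in osteoinductive microgravity and 7.71 in growth microgravity, and on the centrifuge it was 7.69 and 7.80. In the ground units it was 7.72 and 7.54, and in the laboratory 7.43 and 7.48. A single array was high, and the other 7 lay between 7.43 and 7.80. The difference between flight and ground-based arrays was 0.69 (SE 0.33) and did not pass (adjusted p = 0.139). Without the osteoinductive microgravity array it was 0.19 (adjusted p = 0.189), and without the osteoinductive centrifuge array it was 1.00 and passed (adjusted p = 0.0325).

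Each comparison of Lyz2 that used the high array moved with it. In microgravity minus ground it differed by 1.08 (SE 0.38, adjusted p = 0.0629), by 0.09 without the high array and by 2.08 with the high array as the only one in microgravity. In microgravity minus centrifuge it differed by 0.97 (adjusted p = 0.411) and by -0.03 without the high array. In that comparison limma called 0 of 19938 genes, with 2120 at an unadjusted p under 0.05. A fit to the 4 flight arrays alone called 108 genes, Lyz2 among them at an adjusted p of 4.71e-05. Lyz2 differed by 2.02 between the osteoinductive arrays but by -0.08 between the growth arrays. That p thus rests on the spread that limma borrows from other genes, not on agreement of the arrays. The flight by medium term was 0.88 (SE 0.62), and limma called 0 genes in it, with 842 at an unadjusted p under 0.05.

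The near-identical gene Lyz1, chosen after its values were seen, is the lysozyme of mouse Paneth cells. It was at 11.59 and 8.66 in microgravity and 8.00 and 8.49 on the centrifuge, against 6.78 and 7.20 in the ground units and 6.89 and 6.61 in the laboratory, in the order osteoinductive, growth. Every flight array lay above every ground-based array, and the same array was highest for Lyz1 as for Lyz2. Lyz1 rose by 2.32 (SE 0.56, adjusted p = 0.00907), and by 1.47 without the osteoinductive microgravity array (adjusted p = 3.34e-05). The 2 genes are so alike in sequence that a probe set of one may take signal from the other, so both values are uncertain as to which gene they measure.

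Markers of lung epithelium were highest on the array where Lyz2 was high. Of 12 measured, 5 rose in flight and 0 fell, with a median difference of 0.62, where 11.6% of all genes rose. Sftpc, a surfactant protein gene of alveolar type II cells, was at 12.81 on the osteoinductive microgravity array, 9.50 to 10.57 on the other flight arrays and 6.61 to 6.78 on the ground-based arrays. Scgb1a1, a secretory protein gene of airway club cells with a mean in the dim range, rose by 2.07 (SE 0.56). Slc34a2, a phosphate transporter of type II cells, rose by 1.72 (SE 0.55). Ager, a receptor abundant on alveolar type I cells, rose by 0.67 (SE 0.22). Without the osteoinductive microgravity array the differences were 3.32 for Sftpc, 1.24 for Scgb1a1, 0.89 for Slc34a2 and 0.35 for Ager, and 6 of the 12 passed. The count of 5 depended on other arrays: it was 1 without the osteoinductive laboratory array, 2 without the osteoinductive ground array, 3 without either of the growth microgravity and growth laboratory arrays, and 8 without the osteoinductive centrifuge array. Between the 2 osteoinductive flight arrays, microgravity minus centrifuge, 12 of 12 lung markers were higher, with a median of 1.19. Of the 10 macrophage genes 7 were higher there, with a median of 0.16, and the median of all genes was 0.00. The part of lung transcripts in the Lyz2 and Lyz1 values was not tested. Marco, a scavenger receptor that marks alveolar macrophages in mouse, was at 7.26 on the osteoinductive microgravity array and between 7.11 and 7.37 on the other 7.

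Endothelial markers were higher in flight, as Mrc1 was, but their likeness to Mrc1 over the arrays was not computed. Of 12 measured, 11 rose in flight and 0 fell, with a median difference of 0.65, where 11.6% of all genes rose. Their summed linear intensity was 4281 on the osteoinductive microgravity array, 2560 to 2870 on the other flight arrays and 1925 to 1967 on ground-based arrays. Between the 2 osteoinductive flight arrays, microgravity minus centrifuge, 12 of 12 were higher, with a median of 0.86. Mrc1 differed by 0.39 there. Pecam1, an adhesion molecule of endothelium, rose by 0.99 (SE 0.21), and the vascular growth factor receptor Kdr by 0.97 (SE 0.17). Cldn5, a tight junction protein, rose by 0.88 (SE 0.12), and Eng, a co-receptor for transforming growth factor beta, by 0.80 (SE 0.16). The count of 11 was 10 without the osteoinductive microgravity array and 6 without the osteoinductive laboratory array. Without the osteoinductive microgravity array Pecam1 differed by 0.69, Kdr by 0.74, Cldn5 by 0.76 and Eng by 0.59, and Mrc1 by 0.79 (adjusted p = 0.000677). The part of endothelial transcripts in the Mrc1 value was not tested.

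**Figure D3:**
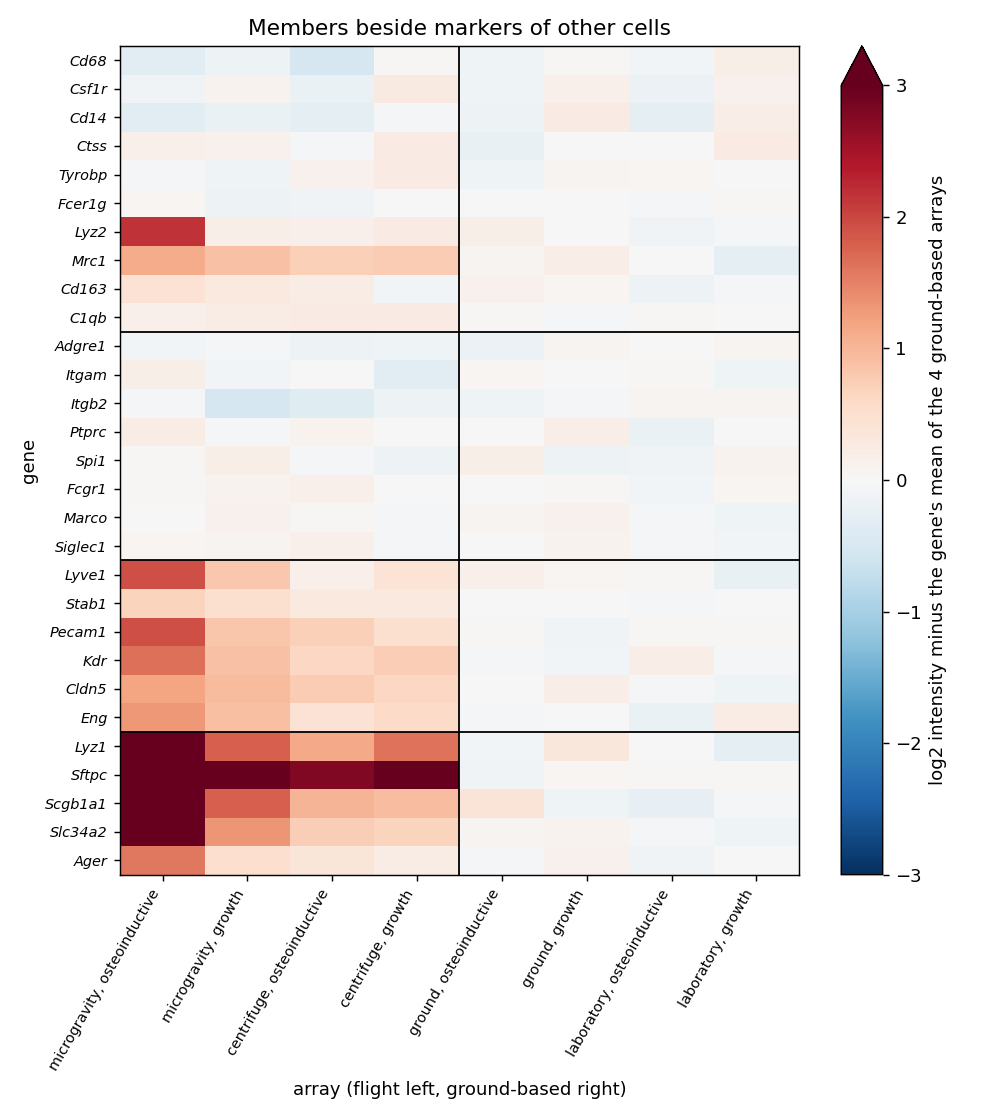
Log2 intensity on each array (columns, flight left of the line and ground-based right) minus the gene's own mean of the 4 ground-based arrays, for the 10 genes and for other macrophage and leukocyte genes, endothelial genes with Lyve1 and Stab1, and lung genes with Lyz1 (rows). Red is higher and blue lower, and the scale stops at 3, which Lyz1, Sftpc, Scgb1a1 and Slc34a2 exceeded on the osteoinductive microgravity array, and Sftpc also on the growth microgravity and growth centrifuge arrays. Lyz2, Lyve1, Pecam1 and the lung genes were highest on the osteoinductive microgravity array, and Adgre1, Ptprc and Spi1 stayed near 0 on all 8.

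Of 36 other surface and phagocytic receptors of macrophages, 22 were dim, 3 rose in flight, 2 fell and 31 did not pass. Over all genes 27.8% passed, 11.6% higher and 16.2% lower. Cd36, a scavenger receptor for lipids that endothelium and fat cells also carry, was at 8.68 and 7.42 in microgravity and 6.07 and 7.11 on the centrifuge, against 5.18 and 4.88 in the ground units and 5.02 and 4.93 in the laboratory, in the order osteoinductive, growth. It rose by 2.32 (SE 0.38, adjusted p = 0.000873), and by 1.81 without the osteoinductive microgravity array. Its mean over all arrays, 6.16, was in the dim range. Lyve1, a hyaluronan receptor of lymphatic endothelium and some tissue macrophages, rose by 0.83 (SE 0.28, adjusted p = 0.0427). Without the osteoinductive microgravity array, where it was 8.70, Lyve1 differed by 0.45 (adjusted p = 0.054). Stab1, a scavenger receptor of sinusoidal endothelium and some macrophages, which was named after its value was seen to complete the 3, rose by 0.43 (SE 0.10, adjusted p = 0.00613). The 2 that fell were Mertk, a receptor for the engulfment of dying cells, at -0.69 (SE 0.09, adjusted p = 0.000164), and Tlr4, the receptor for lipopolysaccharide, at -0.45 (SE 0.12, adjusted p = 0.0155). The count of lower receptors was 1 without either the growth ground or the osteoinductive laboratory array and 4 without the growth centrifuge array.

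The counts of this paragraph stand beside 11.6% of all genes that rose in flight and 16.2% that fell. Leukocyte signalling and cytoskeleton genes, 27 measured, gave 1 higher (Coro1a, 0.26) and 2 lower (Arhgdib, -0.38, and Laptm5, -0.32). Those counts ranged over 0 to 2 and 0 to 3 when 1 array was left out. Genes of the phagocyte oxidase, lysosome and complement, 24 measured, gave 2 higher and 2 lower. Apoe, a lipid carrier, rose by 0.74 (SE 0.11) and Acp5, the tartrate-resistant acid phosphatase of osteoclasts, by 0.73 (SE 0.12). The cholesterol carrier Npc2 and the protease Ctsd fell by 0.38 and 0.30, and this count of 2 ranged from 0 to 5 over the same fits. Antigen presentation genes gave 0 of 9 in either direction, and their largest values were -0.20 for H2-Ab1 and -0.16 for Cd80, neither past the test. Of 15 myeloid transcription factors, Id2 rose by 0.67 (SE 0.11), and Runx1 and Cebpb fell by 0.38 and 0.33, a count of 2 that became 0 without the growth microgravity, growth ground, growth laboratory or osteoinductive laboratory array.

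Growth factors, receptors and chemoattractants of macrophages gave 3 higher and 5 lower of 20, where 11.6% of all genes rose and 16.2% fell. Gas6, a ligand of Mertk, rose by 0.86 (SE 0.11, adjusted p = 0.000161), while Mertk fell. Csf1, the ligand of Csf1r, fell by 0.40 (SE 0.11, adjusted p = 0.0183) and passed in 4 of 8 fits that left out an array. It was at 10.39 and 10.83 in microgravity and 10.53 and 11.33 on the centrifuge, against 11.04 and 11.36 in the ground units and 10.93 and 11.34 in the laboratory, in the order osteoinductive, growth. Its mean, 10.97, lay above the 60th percentile, where genes had a median flight difference of -0.165. The chemokines Cx3cl1 and Ccl3 fell by 0.65 and 0.53, the first in 8 and the second in 4 of those 8 fits. The others past the test, named after their values were seen, were Csf2rb (dim) at 0.33, Csf2ra at 0.28, Csf3 (dim) at -0.33 and Cxcl12 at -0.32. The 3 higher became 1 without any of 4 arrays, both laboratory arrays and the osteoinductive microgravity and centrifuge arrays. The 5 lower ranged from 2 to 7.

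**Figure D4:**
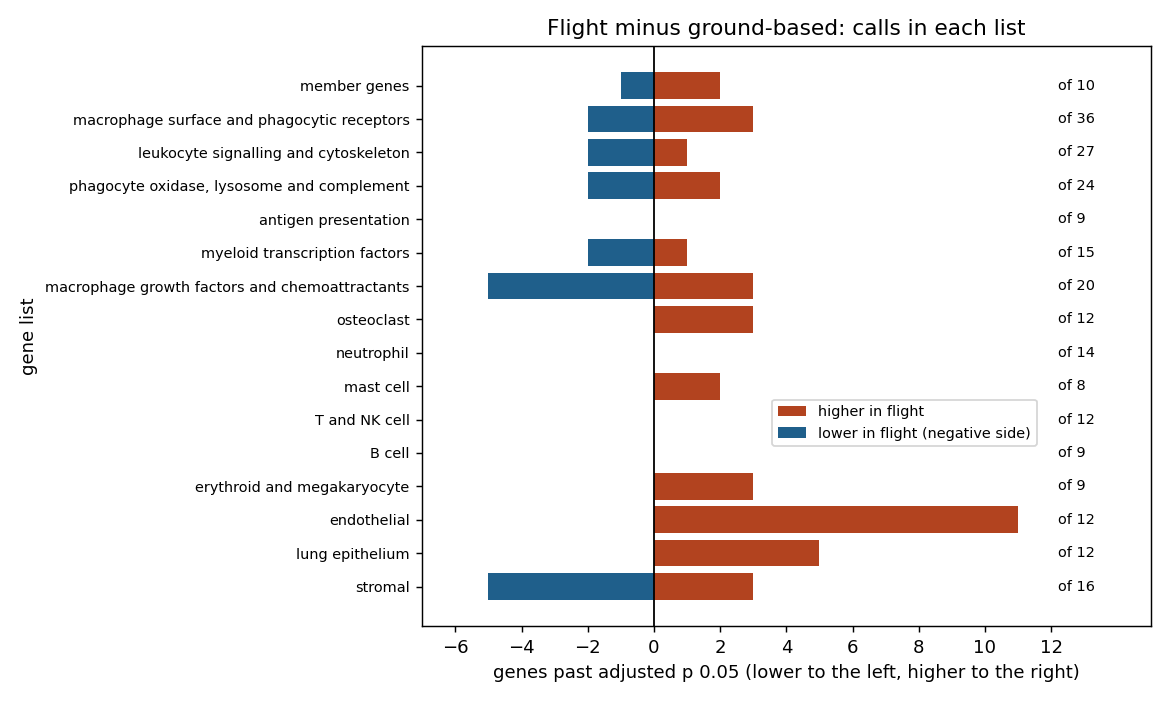
Number of genes past an adjusted p of 0.05 in flight minus ground-based (horizontal axis) in the 10 genes and in 15 other lists (vertical axis), with genes higher in flight drawn to the right, genes lower to the left, and the number measured beside each row. The endothelial list had 11 of 12 higher, and the neutrophil, T and NK cell, B cell and antigen presentation lists had 0 calls. Of all genes 11.6% were higher and 16.2% lower.

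Osteoclasts arise from the same precursors as macrophages, and of 12 osteoclast genes 3 rose and 0 fell: Ckb, a creatine kinase, by 1.79 (SE 0.10), the collagen-degrading protease Ctsk by 0.77 (SE 0.14), and Acp5. All 3 passed without any 1 array. The other 9 did not pass, among them Tnfrsf11a at -0.05, Oscar at 0.09, Dcstamp (dim) at 0.02 and Nfatc1 at 0.03. The median of the osteoclast list was 0.03. Over all genes 11.6% rose and 16.2% fell in flight, the shares to set beside each count of this paragraph. Mast cell genes gave 2 of 8 higher, Kit at 0.99 and Cpa3 (dim) at 0.44. Erythroid and megakaryocyte genes gave 3 of 9 higher, Pf4 (dim) at 0.75, Ppbp (dim) at 0.37 and Slc4a1 at 0.30. That count of 3 was 1 without the osteoinductive microgravity or the osteoinductive laboratory array. Neutrophil genes gave 0 of 14 (13 dim), T and NK cell genes 0 of 12 (9 dim) and B cell genes 0 of 9 (6 dim). Their largest differences were 0.30 for Cxcr2, 0.29 for Zap70 and 0.12 for Igll1 and Vpreb1, none past the test. Stromal genes gave 3 higher and 5 lower of 16, among them the matrix proteins Lum at 0.86 and Postn at 0.62, the adhesion molecule Vcam1 at -0.59 and the growth factor receptor Pdgfrb at -0.56.

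The comparison of osteoinductive with growth medium asked how macrophage genes stood in cultures driven towards bone. Csf1r fell by a small amount, and Cd14 and Cd68 had values of like size that did not pass. Csf1r was the 1 of 10 that passed, where 8.45% of all genes passed, 4.18% higher and 4.27% lower. It was also the 1 of 10 whose arrays did not overlap between media, against 7.82% of all genes.

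Csf1r was at 7.88 in microgravity, 7.77 on the centrifuge, 7.85 in the ground units and 7.81 in the laboratory in osteoinductive medium. In growth medium it was at 8.09, 8.25, 8.14 and 8.11 in the same conditions. Every osteoinductive array lay below every growth array, with means of 7.83 ± 0.05 and 8.15 ± 0.07 (SD, n = 4 each). The difference was -0.32 (SE 0.08, a fold of 0.802, adjusted p = 0.0389, limma). It stayed between -0.35 and -0.27 when 1 array was left out, but no longer passed in any of the 8 fits, where the lowest adjusted p was 0.0553.

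Cd14 was at 6.95 in microgravity, 6.98 on the centrifuge, 7.11 in the ground units and 6.98 in the laboratory in osteoinductive medium, against 7.07, 7.21, 7.51 and 7.46 in growth medium. It was lower in osteoinductive medium in 4 of 4 conditions, with a difference of -0.30 (SE 0.09), and did not pass (adjusted p = 0.0596). It passed after quantile normalization and with the percentile filter, at adjusted p of 0.0415 and 0.0378. Cd68 was also lower in 4 of 4 conditions, with a difference of -0.28 (SE 0.09, adjusted p = 0.0842), with the largest single difference, -0.53, between the centrifuge arrays. Ctss differed by -0.19 (SE 0.09, adjusted p = 0.254) and was not lower in microgravity, where the pair differed by 0.03. Lyz2 differed by 0.51 (SE 0.27), and by 0.01 without the osteoinductive microgravity array. The other 5 lay between -0.04 and 0.10.

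Of the 24 genes of the mixed oxidase, lysosome and complement list, 8 rose and 0 fell in osteoinductive medium, against the 4.18% of all genes that rose, and 16 did not pass. The list had a median of 0.24 and all genes one of 0.01. The genes of this comparison that are not members were named after their values were seen. Gpnmb, a glycoprotein of lysosomes that bone-forming cells and osteoclasts also make, was at 11.00 in microgravity, 11.31 on the centrifuge, 10.61 in the ground units and 11.00 in the laboratory in osteoinductive medium. In growth medium it was at 8.39, 9.02, 9.15 and 9.39. It rose by 1.99 (SE 0.16, adjusted p = 1.82e-05), Lgals3 by 0.81 (SE 0.09) and the protease Lgmn by 0.77 (SE 0.10). The others that rose were Ctsb at 0.68, Grn at 0.41, Lamp1 at 0.38, Ctsl at 0.36 and Psap at 0.35. The lysosomal genes Ctsd at 0.27, Npc2 at 0.28, Ctsz at 0.21 and Lipa at -0.13 did not pass. The members Csf1r, Cd68 and Ctss are not in this list, and they differed by -0.32, -0.28 and -0.19 between media.

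The list counts of this paragraph stand beside 8.45% of all genes that passed between media, 4.18% higher and 4.27% lower. Growth factors and chemoattractants gave 1 higher and 3 lower of 20. Csf1 fell in osteoinductive medium by 0.49 (SE 0.10, adjusted p = 0.00819), as its receptor Csf1r did. The monocyte chemoattractant Ccl2 fell by 0.85 (SE 0.14, adjusted p = 0.00321) and Ccl3 by 0.97 (SE 0.12, adjusted p = 0.000528), and Ccl9 rose by 0.53 (SE 0.10). Csf1, Ccl2 and Ccl3 passed in 8 of 8 fits that left out an array, and Ccl9 in 6. Among the 36 surface receptors, of which 33 did not pass, Mertk rose by 0.50 and Sirpa by 0.30, and Lilrb4a fell by 0.56. Mertk and Lilrb4a passed in 8 of those 8 fits and Sirpa in 0, where its lowest adjusted p was 0.0731. Of 12 osteoclast genes, 2 rose and 1 fell. Atp6v0d2, a proton pump subunit needed for fusion of osteoclasts, was at 0.87 (SE 0.09) and Ctsk at 0.61 (SE 0.11). The gene that fell was Mmp9, at -0.46 (SE 0.09). The other 9 did not pass, among them Dcstamp (dim) at -0.01, Ocstamp at -0.04 and Nfatc1 at 0.04. Atp6v0d2 was dim, at a mean of 6.80.

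The remaining contrasts gave few calls among the 10 genes. In microgravity minus ground Cd14 differed by -0.30 (SE 0.13, adjusted p = 0.124) and Ctss by 0.26 (SE 0.13, adjusted p = 0.17). In centrifuge minus ground C1qb differed by 0.27 (SE 0.12, adjusted p = 0.215). In microgravity minus centrifuge Tyrobp differed by -0.27 (SE 0.13, adjusted p = 0.481). In ground minus laboratory, where limma called 0 genes and 480 were at an unadjusted p under 0.05, Ctss differed by -0.24 (SE 0.13). None of these passed.

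The 10 genes did not follow 1 profile over the arrays. The mean of the 10, after each was centred on its own mean, was highest on the osteoinductive microgravity array at 0.25 and lowest on the osteoinductive laboratory array at -0.16. The genes most like this mean among 12624 that were not dim were Mfap4 (Pearson r = 0.986), Stard8 (0.966), Ptp4a3 (0.942), Ralgapa2 (0.926), Egfl7 (0.921), Cdh5 (0.919), Kank3 (0.917) and Acvr2a (0.917), each over 8 arrays. Without the osteoinductive microgravity array, a setting added after seeing the data, the mean profile was highest on the growth centrifuge array at 0.14. Over the 7 arrays left r was 0.966 for Mfap4, 0.936 for Stard8, 0.959 for Ptp4a3 and 0.904 for Ralgapa2, and 0.796 (Egfl7) to 0.825 (Acvr2a) for the other 4. These correlations are descriptions across arrays that share media and conditions, and the mean is weighted towards Lyz2 and Mrc1, which varied most. Egfl7 and Cdh5 are genes of endothelium and belong to the endothelial list.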

How the data were processed

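The authors deposited linear intensity values, 1 per probe set and array of each of 8 RNA samples, and both RMA and GCRMA appear in the submitters' processing notes, with no word on which was used. The sources used here give no genome build. Of 35557 probe sets, 21789 were paired with 1 gene. The brightest of a gene's probe sets stood for it, which gave 19938 genes.

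Log2 intensities were tested without a filter with limma 3.58.1 in R 4.3.3 (lmFit, eBayes), two-sided, with Benjamini-Hochberg adjustment over all genes in each of 7 comparisons. Flight minus ground-based had a term for medium and 5 residual degrees of freedom, the flight by medium term 4, and the other comparisons, from condition plus medium, 3. The 2 conditions on each side of the flight comparison thus served as repeats. The fit was tested on simulated data.

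The 10 genes, the 15 other lists (234 of 255 genes had a probe set) and the tests were chosen with earlier results of these data known. In each list up to 4 genes with the largest difference past the flight threshold were named, or up to 2 where none passed. The 8 genes of most similar profile had no Gm or Rik names.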

Additional observations from a re-analysis of the deposited data

Results flagged for a closer look

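The Lyz2 value on the osteoinductive microgravity array stood far from the other 3 flight arrays. It was 9.72, the nearest flight array was at 7.80, and this gap was 0.95 of the range of the 4 flight arrays, above the critical value of Dixon's test at 95%. Chance takes about 1 in 20 groups past the critical value, which lies below this gap. Of the 20 groups tested, the 10 genes in the flight and in the ground-based arrays, 1 was past it.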

How the results depend on the processing

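Mrc1 in flight minus ground-based passed under each alternative that kept it. The percentile filters removed it as dim. The 40th percentile kept 7 of the 10 genes, and the 60th kept only Cd68 and Ctss. Under both, 0 of the members kept passed in centrifuge minus ground, and under the 60th 0 in microgravity minus ground. Under the 60th percentile 3684 genes, 41.4% of those left, passed in flight minus ground-based. Of the members kept there, Cd68 passed and Ctss did not. In centrifuge minus ground 641 genes passed, 7.21% of those left. Without a term for medium 3602 genes passed in flight, and with microgravity and ground arrays alone 3600 genes and 1 of the 10. With the 4 flight arrays alone 108 genes and 1 of the 10 passed in microgravity minus centrifuge. Fits of 4 arrays leave little to estimate each gene's own spread, so their calls lean on the spread of other genes. Quantile normalization gave 2 of the 10 in microgravity minus ground, where 15.8% of all genes passed, and 2 in osteoinductive minus growth, where 8.71% passed. The 40th percentile also gave 2 between media, where 14.5% of the genes left passed. The cause was not tested where the filter or fewer arrays do not give it.

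Leaving out 1 array gave 3706 to 7383 genes and 1 to 3 of the 10 in flight minus ground-based, 1583 to 4738 genes and 1 to 2 in microgravity minus ground, and 806 to 1659 genes and 0 to 1 in centrifuge minus ground. It gave 0 to 95 genes and 0 to 1 in microgravity minus centrifuge, 0 to 1 genes in ground minus laboratory, 728 to 1464 genes and 0 of the 10 in osteoinductive minus growth, and 0 to 27 genes and 0 to 1 in the flight by medium term.

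Signs turned for genes that had not passed: Csf1r at -0.02 and Tyrobp at -0.05 in flight after quantile normalization, and Csf1r at -0.01, Tyrobp at -0.06 and Igll1 at -0.01 with microgravity and ground arrays alone. With 1 array left out, flight values ranged from -0.02 to 0.05 for Csf1r, -0.02 to 0.13 for Tyrobp and -0.28 to 0.03 for Cd80. Lyz2 ranged from -0.03 to 1.97 in microgravity minus centrifuge and from -0.13 to 1.90 in the flight by medium term. The filter at the 60th percentile left 18.9% of the flight calls higher, where 41.8% were higher without it, and put the median of its genes at -0.165. No paired analysis was possible because the labels carry no replicate numbers beyond the 1 array of each medium and condition, and arrays were matched only through the terms for medium and condition. Genes near the dim range are limited by signal over background.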
